A study of Mus musculus with 8 samples.

Results

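The genes described here are the chemokines, small secreted proteins that direct the migration of leukocytes, and the receptors that read them, as measured in the pancreatic lymph nodes of Deaf1 knockout mice and wild-type littermates. They were taken by name: every non-control probe whose gene name in the array files begins with Ccl, Cxcl, Cx3cl, Xcl, Ccr, Cxcr or Cx3cr followed by a digit was kept, and Xcr1 was left out. This gave 63 probes of 50 genes, of 27597 genes with a probe on the array. 43 of the 50 genes passed a filter on dim probes, of 18410 genes that did, and each was represented by its brightest passing probe. Ccl1, Ccl28, Ccr1, Ccr1l1, Ccr8, Cxcl15 and Cxcl2 did not pass. The array files name Cxcr1, Cxcr2 and Cxcr5 by older symbols, so these receptors fall outside the rule, and Cxcr5 is given only beside its ligand.

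Every one of the 8 Agilent arrays paired a lymph node sample from a mouse labelled Deaf1 knockout, in the red channel, with nodes pooled from age-matched wild-type littermates, in the green channel, all of the BALB/c strain. There were 2 arrays at 4 weeks of age, each against a pool of 2 wild-type mice, 3 arrays at 12 weeks and 3 at 30 weeks, each against a pool of 3 wild-type mice. Deaf1 encodes a DNA-binding regulator studied in lymph node stroma for the expression of tissue antigens, and the series compares gene expression with and without it as the mice age. A log2 ratio below is knockout over wild-type pool on 1 array, and an adjusted p comes from limma fitted over all 18410 genes with Benjamini-Hochberg adjustment, where a gene under 0.05 is said to have risen or fallen. No array set 1 wild-type mouse against a pool and the dyes were never swapped, so the tests hold the spread between knockout samples only, and a dye effect common to all arrays cannot be told apart from the genotype.

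Depth and identity of the arrays bear on the values below. Between 37.2% and 71.4% of probes stood well above background per channel. Wild-type levels of the 12-week arrays correlated at 0.998 to 0.999 over genes and knockout levels at 0.978 to 0.989. At 30 weeks the correlations were 0.998 to 0.999 and 0.976 to 0.995. The labels do not say whether arrays of an age share 1 pool. Where knockout and pool levels are said below not to overlap, the spread between wild-type mice is therefore not known. Of the 3 Deaf1 probes, 2 passed the filter, with log2 ratios of -0.22 and -0.12 at 4 weeks, 0.34, 0.35 and 0.32 at 12 weeks and 0.14, 0.0047 and 0.15 at 30 weeks for one, and -0.29 and -0.10, 0.12, 0.15 and 0.18, and -0.74, 3.11 and -0.62 for the other. Whether these probes lie in the deleted part of the gene is not given in the sources used here, so they do not check the labels. At 12 weeks replicate 2 stood apart, with an Xist log2 ratio of 5.32 and Ddx3y at -3.89, against -0.40 and 0.33 for Xist and 0.91 and 0.62 for Ddx3y in replicates 1 and 3. At 30 weeks replicate 2 held a Deaf1 probe at 3.11 and a median log2 ratio of 4.15 over 10 pancreatic acinar genes, against -4.21 and -4.54 in replicates 1 and 3. Both 4-week arrays were on a slide and scanner of their own, so a difference between 12 and 4 weeks cannot be told apart from the slide.

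Chemokines fall into classes by what they do in a lymph node. The homeostatic chemokines are made without infection by stromal cells: Ccl19 and Ccl21 draw T cells and dendritic cells that carry Ccr7, Cxcl13 draws B cells that carry Cxcr5 into follicles, and Cxcl12 binds Cxcr4. The inflammatory chemokines are induced by cytokines such as interferons and tumour necrosis factor and recruit monocytes, neutrophils, eosinophils and effector lymphocytes. The remaining ligands serve particular tissues or both purposes. Bulk nodes were measured, so fewer cells of a type and less RNA per cell cannot be told apart.

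At 4 weeks 13 of the 43 measured genes passed the test, 6 higher and 7 lower in knockout nodes, which is 30.2% against 22.7% of all genes tested (15.3% higher and 7.38% lower). At 12 weeks 2 of 43 passed, 1 higher and 1 lower, or 4.65% against 2.61% of all genes (1.23% higher and 1.37% lower). At 30 weeks 11 of 43 passed, 8 higher and 3 lower, or 25.6% against 39.1% of all genes (20.7% higher and 18.4% lower). With this processing the share of these genes that passed was above that of all genes at 4 weeks and below it at 30 weeks. At 12 weeks it rested on 2 genes. The 4-week order depended on the normalisation. With the scanner's own log ratio 14 of the 43 passed at 4 weeks, against 34.8% of all genes. With the deposited table of log2 ratios 14 did, against 35.3%, so the share was then not above that of all genes. The median log2 ratio over the 43 genes was -0.022 at 4 weeks, -0.016 at 12 weeks and 0.14 at 30 weeks, against 0.024, 0.018 and 0.028 over all genes.

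These counts rest on few arrays. Without replicate 1 at 4 weeks, when replicate 2 alone gives the value, 0 of the 43 passed and 2.71% of all genes did. Without replicate 2 at 12 weeks 7 passed, 6 of them higher, and 10.1% of all genes did. Without any other single array, of whatever age, 0 passed at 12 weeks, and 0.0978% to 1.46% of all genes did. Without replicate 3 at 30 weeks 1 passed, without replicate 1, 4 passed, and without replicate 2, 6 passed, against 21.4%, 22.4% and 29.2% of all genes. The 6 that passed without replicate 2 were Cxcl10, Cxcl4, Ccr2, Ccl17 and Cx3cr1, higher, and Ccr7, lower, so the 30-week calls of Cx3cl1, Cxcl14, Ccl21c, Cxcl12 and Ccr6 needed that array. When each array was centred on its median and not fitted by intensity, the median log2 ratio of all genes moved to 0.49, 0.41 and 0.15 at 4, 12 and 30 weeks. The calls were then 17 higher and 0 lower at 4 weeks (53% of all genes passed), 20 higher and 1 lower at 12 weeks (56%) and 12 higher and 0 lower at 30 weeks (28%), of which 6, 1 and 8 were also called above. Relative to that shift, 13 of 13, 2 of 2 and 10 of 11 of the genes called kept their direction, and Ccl21c at 30 weeks did not.

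**Figure D1:**
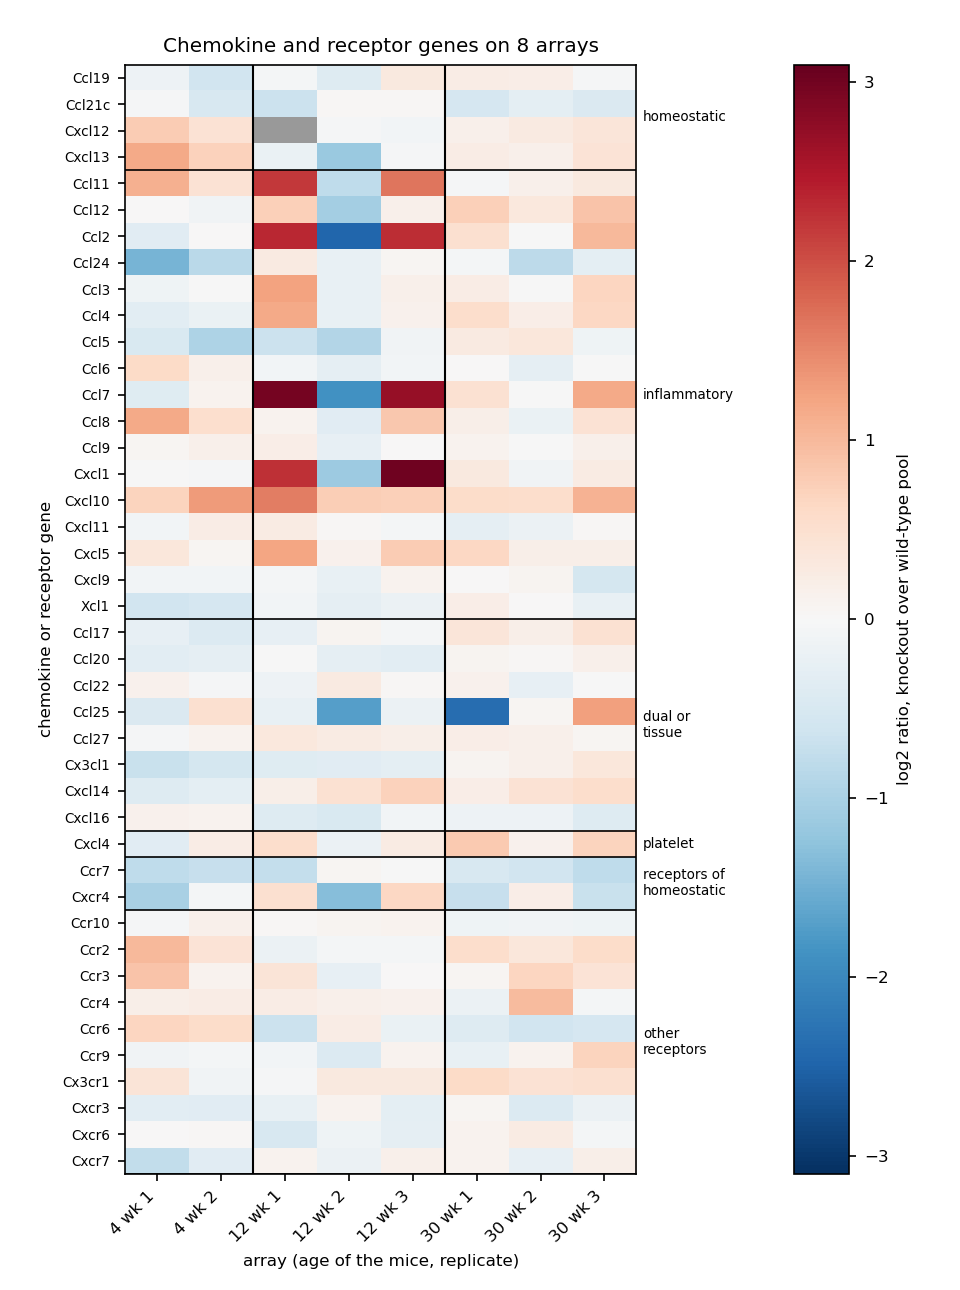
Log2 ratio, knockout over wild-type pool, of the measured chemokine and receptor genes except 1 receptor that is not reported singly (rows, grouped by class) on the 8 arrays (columns, by age in weeks and replicate); red is higher in the knockout sample, blue is lower, and grey marks the 1 missing value, Cxcl12 on the first 12-week array. Cxcl10 is red on all 8 arrays, while Ccl2, Ccl7, Cxcl1 and Ccl11 are red on 2 and blue on 1 of the 12-week arrays.

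Among the homeostatic chemokines, Cxcl13 and Cxcl12 rose in 4-week knockout nodes, while Ccl19 did not pass the test at any age and Ccl21c passed it at 30 weeks, where it was lower. Cxcl13 had log2 ratios of 1.17 and 0.72 at 4 weeks, -0.19, -1.15 and -0.039 at 12 weeks and 0.23, 0.15 and 0.41 at 30 weeks. Its normalised level on the log2 scale was 12.08 and 12.11 in 4-week knockout nodes, against 10.91 and 11.39 in their wild-type pools, and the groups did not overlap. The fitted ratio was 0.94 (SE 0.23, adjusted p = 0.0226) at 4 weeks, whereas at 12 weeks all 3 arrays lay below 0 and replicate 2 gave most of a ratio of -0.46 (SE 0.19, adjusted p = 0.178) that did not pass. At 30 weeks all 3 arrays lay above 0 with a ratio of 0.27 (SE 0.19, adjusted p = 0.302).

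Cxcl12 was measured by a pair of probes that the 4-week files pair with different transcript accessions, and these gave opposite signs at 30 weeks. The first 30 bases of each 60-base probe are shown because the ratio depends on which is read; the mm8 positions in the files are chr6:117146828-117146887 on the plus strand for the brighter probe and chr6:117140075-117140134 on the plus strand for the other.
Cxcl12 brighter probe: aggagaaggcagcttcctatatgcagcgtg
Cxcl12 other probe: gaattaatcataaacggaagtttaaatgag
The brighter probe had log2 ratios of 0.78 and 0.44 at 4 weeks, -0.025 and -0.096 at 12 weeks in replicates 2 and 3, where replicate 1 has no value because its spot was dropped by its outlier mark, and 0.16, 0.29 and 0.38 at 30 weeks. It rose at 4 weeks, by 0.61 (SE 0.10, adjusted p = 0.00627), and at 30 weeks, by 0.27 (SE 0.083, adjusted p = 0.0341). The other probe had log2 ratios of 0.37 and 0.30 at 4 weeks, -0.39, -0.11 and -0.083 at 12 weeks and -0.52, -0.42 and -0.34 at 30 weeks. Both probes were thus above 0 on both 4-week arrays, and on every 30-week array the brighter one was above 0 and the other below. The mean of the probes at 30 weeks was -0.078 (adjusted p = 0.477), so the 30-week rise of Cxcl12 holds for 1 of its probes only.

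Ccl19 and Ccl21c are both ligands of Ccr7. Ccl19 had log2 ratios of -0.17 and -0.60 at 4 weeks, -0.065, -0.40 and 0.30 at 12 weeks and 0.23, 0.21 and -0.027 at 30 weeks. Ccl21c had -0.044 and -0.49 at 4 weeks, -0.67, 0.028 and 0.030 at 12 weeks and -0.52, -0.30 and -0.44 at 30 weeks, and its 30-week ratio was -0.42 (SE 0.14, adjusted p = 0.0479). That call did not hold under median centring, where the ratio was 0.24 against 0.15 for all genes, and it failed in 6 of 8 fits that left out 1 array. The mouse genome carries near-identical Ccl21 copies, and the array files of 4 weeks and of the later ages pair this probe with different accessions, of Ccl21c and of Ccl21a, so the values stand for the copies together. The probe starts with these 30 of its 60 bases, at chr4:42016634-42016693 on the plus strand (mm8).
Ccl21c probe: tggttcacggtccaactcacaggcaaagag

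The receptors of the homeostatic ligands were lower where they passed. Ccr7, which guides T cells and dendritic cells into the node, had log2 ratios of -0.78 and -0.72 at 4 weeks, -0.74, 0.069 and -0.0012 at 12 weeks and -0.49, -0.60 and -0.78 at 30 weeks. It fell at 4 weeks, with a ratio of -0.75 (SE 0.18, adjusted p = 0.0183), and at 30 weeks, with -0.63 (SE 0.14, adjusted p = 0.00984). Its levels were 12.12, 11.89 and 11.80 in 30-week knockout nodes and 12.61, 12.50 and 12.58 in the wild-type pools, with no overlap, while at 12 weeks replicate 1 was low and replicates 2 and 3 were level with the pools. Cxcr5, the B-cell receptor of Cxcl13, had log2 ratios of -0.57 and 0.12 at 4 weeks, -0.31, -0.018 and -0.41 at 12 weeks and -0.32, -0.66 and -0.46 at 30 weeks, and its 30-week ratio was -0.48 (SE 0.13, adjusted p = 0.0211).

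Cxcr4, the receptor of Cxcl12, passed at no age, and its ratio spread widely: -1.01 and -0.056 at 4 weeks, 0.50, -1.33 and 0.64 at 12 weeks and -0.70, 0.20 and -0.69 at 30 weeks. A second Cxcr4 probe, nearer the gene's start, was lower at the later ages, with -0.63, -1.61 and 0.20 at 12 weeks and -1.60, -1.06 and -1.43 at 30 weeks. All 3 of its 30-week values lay below -1, where the brighter probe had 2 values near -0.70 and 1 above 0. The first 30 bases of both probes follow, the brighter at chr1:130416048-130416107 on the minus strand and the other at chr1:130416628-130416687 on the minus strand (mm8).
Cxcr4 brighter probe: aggaagaaactgaacattccagaatgtgtg
Cxcr4 other probe: catattatgtggggatcagcatcgactcct

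Markers of the cells that make or read these signals are set beside them. Of all genes 15.3% were higher and 7.38% lower at 4 weeks, and 20.7% higher and 18.4% lower at 30 weeks. At 4 weeks 3 of 4 lymphatic endothelial genes and 4 of 10 fibroblastic reticular cell genes were higher in knockout nodes, with list medians of 0.69 and 0.27 and none lower. The log2 summed level of the reticular list was 15.98 to 16.18 in 4-week knockout nodes, against 15.37 to 15.41 in the pools, and of the lymphatic list 12.21 to 12.53, against 10.78 to 11.22; 9 or more of 10 reticular genes and 2 or more of 4 lymphatic genes were well above background on each array. Of 5 measured follicular dendritic cell genes 1 was higher, with summed levels of 17.01 to 17.18 in knockout nodes and 16.40 to 17.14 in pools. At 30 weeks 4 of 8 B-cell genes and 4 of 9 T-cell genes were lower, with medians of -0.40 and -0.29, and 1 B-cell gene was higher. B-cell summed levels were then 15.56 to 16.04 in knockout nodes and 15.82 to 15.92 in pools, and T-cell levels 15.42 to 15.75 and 15.75 to 15.88, with every marker of both lists well above background. At 4 weeks, when Ccr7 fell, 1 of 9 T-cell genes was lower and 2 of 8 B-cell genes were higher. T-cell list medians were then -0.11 and -0.16, with summed levels of 16.05 and 15.52 in knockout nodes, against 16.38 and 15.82 in their pools. B-cell list medians were 0.099 and 0.36, with summed levels of 15.25 and 15.60 against 15.13 and 15.41. On each 4-week array 8 or more of 9 T-cell genes and 7 or more of 8 B-cell genes were well above background. At 30 weeks 2 of 10 reticular genes were higher and 2 lower, and 1 of 4 lymphatic genes was lower. The part of these cell types in the Cxcl12, Cxcl13, Ccr7 and Cxcr5 ratios was not tested.

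**Figure D2:**
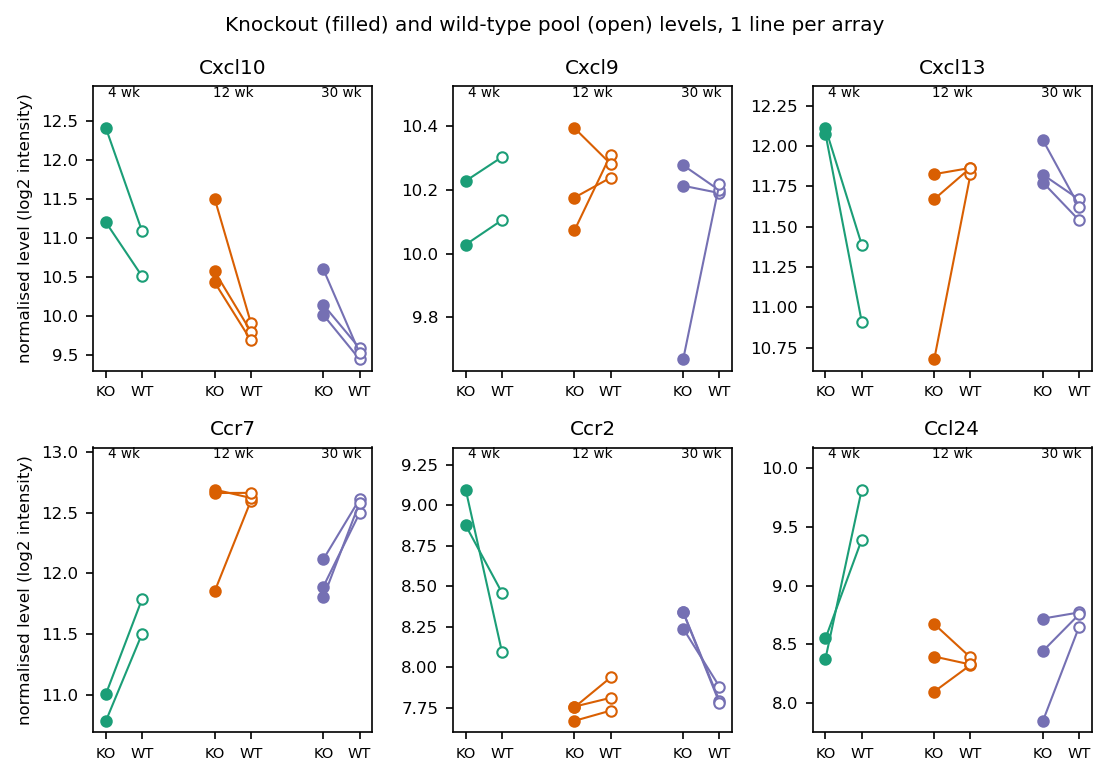
Normalised log2 level of 6 genes in knockout samples (KO, filled) and wild-type pools (WT, open), 1 line per array, by age. Cxcl10 slopes down from KO to WT on all 8 arrays, Ccr7 slopes up at 4 and 30 weeks, and Cxcl13, Ccr2 and Ccl24 show their clearest gaps at 4 weeks.

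Among the inflammatory chemokines, Cxcl10 was the one that rose at every age. It encodes an interferon-induced ligand of Cxcr3, the receptor of activated T cells. Its log2 ratios were 0.69 and 1.32 at 4 weeks, 1.59, 0.77 and 0.74 at 12 weeks and 0.57, 0.55 and 1.07 at 30 weeks. All 8 arrays lay above 0, as did those of Cxcl5, dim at 4 weeks, alone among the 43 genes, against 10.6% of all genes; none of the 43 lay below 0 on all 8, against 7.12% of all genes. The fitted ratios were 1.01 (SE 0.23, adjusted p = 0.0172), 1.03 (SE 0.19, adjusted p = 0.0389) and 0.73 (SE 0.19, adjusted p = 0.0164), that is 2.01-fold, 2.05-fold and 1.66-fold higher in knockout nodes.

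Levels of Cxcl10 at 12 weeks were 11.50, 10.57 and 10.43 in knockout nodes, against 9.91, 9.80 and 9.69 in the pools, and at 30 weeks 10.02, 10.15 and 10.60 against 9.45, 9.59 and 9.53. The groups did not overlap at these ages or at 4 weeks, where the levels were 11.20 and 12.40 in knockout nodes and 10.51 and 11.08 in the pools. Over the mean of the 3 ages the ratio was 0.92 (SE 0.12, adjusted p = 0.000756). It kept its call under all of the alternatives run for that mean, which was so for Ccr2 besides and for no other call. The mean was not fitted within slide 2, which held no 4-week array. Age by age it was less secure: at 4 weeks it failed without either 4-week array, and at 12 weeks it held only when replicate 2 was the array left out.

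The other interferon-induced ligands of the same receptor did not move with it. Cxcl9 had log2 ratios of -0.075 and -0.077 at 4 weeks, -0.063, -0.24 and 0.11 at 12 weeks and 0.023, 0.079 and -0.55 at 30 weeks, and its fitted values lay between -0.15 and -0.063 with adjusted p of at least 0.363. Cxcl11 had -0.075 and 0.23, 0.24, 0.040 and -0.050 and -0.27, -0.18 and 0.035; at 12 weeks none of its wild-type signals stood well above background. Whether the ratio of Cxcl10 differs from that of Cxcl9 was not tested. The receptor Cxcr3 had -0.32 and -0.34 at 4 weeks, -0.24, 0.11 and -0.29 at 12 weeks and 0.070, -0.41 and -0.18 at 30 weeks, passed at no single age, and over the mean of the ages was -0.21 (SE 0.066, adjusted p = 0.0281).

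Promoter sequences are shown for Cxcl10, the ligand that rose, for its neighbour on chromosome 5, Cxcl9, that did not, and for Cxcl1, which moved with the 12-week group described below. Each window runs from 250 bases before to 50 after the annotated start, from RefSeq on GRCm38.p6, with matches in capitals to any of 3 motifs on either strand: GAAA, any 2 bases and GAAA, the core of interferon-stimulated response elements, GGGA, any 2 bases and TTCC, a kappa-B form, and TGANTCA, the AP-1 site. The Cxcl10 window lies at chr5:92348840-92349139 on the minus strand, the Cxcl9 window at chr5:92328030-92328329 on the minus strand and the Cxcl1 window at chr5:90890995-90891294 on the plus strand.
Cxcl10: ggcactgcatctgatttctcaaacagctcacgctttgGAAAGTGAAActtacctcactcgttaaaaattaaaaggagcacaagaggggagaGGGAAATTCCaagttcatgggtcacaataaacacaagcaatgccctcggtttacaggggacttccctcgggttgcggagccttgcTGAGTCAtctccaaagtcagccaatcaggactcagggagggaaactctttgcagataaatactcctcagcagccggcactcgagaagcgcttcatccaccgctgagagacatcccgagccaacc
Cxcl9: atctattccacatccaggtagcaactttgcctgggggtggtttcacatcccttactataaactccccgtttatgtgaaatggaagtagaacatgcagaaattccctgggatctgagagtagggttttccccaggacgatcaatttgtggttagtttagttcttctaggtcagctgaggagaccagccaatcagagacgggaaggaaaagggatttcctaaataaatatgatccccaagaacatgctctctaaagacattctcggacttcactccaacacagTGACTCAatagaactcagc
Cxcl1: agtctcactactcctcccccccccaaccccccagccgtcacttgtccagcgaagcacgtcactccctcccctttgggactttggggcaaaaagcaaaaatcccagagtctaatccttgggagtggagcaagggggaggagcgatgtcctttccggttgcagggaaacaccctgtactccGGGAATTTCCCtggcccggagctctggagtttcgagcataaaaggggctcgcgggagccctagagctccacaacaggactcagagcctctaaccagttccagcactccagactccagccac
The Cxcl10 window held 1 match to each motif, beginning at positions -213, -159 and -74 from the start. The Cxcl9 window held the AP-1 motif alone, at position 32, after the start, and the Cxcl1 window held the kappa-B motif on both strands as overlapping matches. Over 32851 windows of the same length, 3.44% held the first motif, 1.47% the second and 7.81% the third. Of the 37 member genes with a window, 3, 5 and 8 held them, and the interferon motif was in Ccl19, Cxcl10 and Cxcl14. A match is a match of letters only and was not tied to the ratios.

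Ligands of the monocyte and neutrophil receptors differed most between the 12-week arrays. Ccl2, the main ligand of Ccr2 on monocytes, had log2 ratios of 2.33, -2.47 and 2.30 at 12 weeks, against -0.36 and 0.0097 at 4 weeks and 0.50, -0.0093 and 1.00 at 30 weeks. Ccl7, another ligand of Ccr2, had 2.96, -1.87 and 2.70, and Cxcl1, a ligand of Cxcr2 on neutrophils, had 2.27, -1.13 and 3.02. Ccl11, the eotaxin that draws eosinophils through Ccr3, had 2.18, -0.79 and 1.67. All 4 were high in replicates 1 and 3 and low in replicate 2, and their SDs over the 3 arrays of 2.76, 2.72, 2.21 and 1.59 stood at the 99.8th percentile of all genes or above.

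The level of Ccl2 was 14.38, 9.37 and 14.27 in 12-week knockout nodes, against 12.05, 11.84 and 11.97 in the pools, so the knockout samples lay on either side of the pools. None of the 4 passed at 12 weeks over the 3 arrays, with adjusted p of 0.597 for Ccl2, 0.345 for Ccl7, 0.208 for Cxcl1 and 0.207 for Ccl11. Without replicate 2 all 4 passed, at 2.31 (SE 0.20, adjusted p = 0.00176) for Ccl2, 2.83 (SE 0.24, adjusted p = 0.00176) for Ccl7, 2.64 (SE 0.17, adjusted p = 0.000746) for Cxcl1 and 1.93 (SE 0.17, adjusted p = 0.00197) for Ccl11. Cxcl5, a further neutrophil ligand, and Cxcl10 were also higher then, and Cxcr6 lower.

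The 12-week pattern was not limited to these 4 chemokines. 37 genes had log2 ratios over 1 in replicates 1 and 3 and under -0.5 in replicate 2; they were listed after the values were seen, and besides the 4 chemokines they include Hspa1a, Dnajb1, Fos and Egr1. Hspa1a, a heat-shock chaperone, had 2.70, -5.26 and 2.83, the widest 12-week spread of any gene tested, and Fos, an immediate-early transcription factor, had 1.06, -2.16 and 1.71. Neutrophil markers had list medians of -0.93, -2.13 and 0.66 in replicates 1, 2 and 3, with summed levels of 11.22 to 14.66 in knockout nodes and 13.86 to 14.01 in pools, and all 6 measured genes were well above background. Replicate 2 is also the array whose Xist and Ddx3y ratios stood apart. The part of tissue handling, neutrophils or the sex of the mice in the chemokine spread was not tested.

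**Figure D3:**
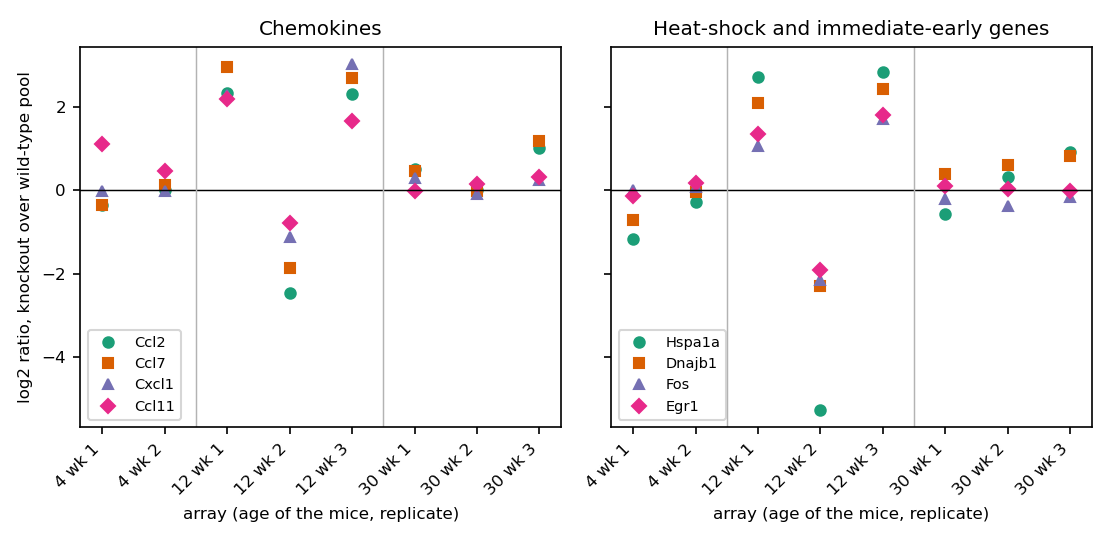
Log2 ratio, knockout over wild-type pool, on each array for Ccl2, Ccl7, Cxcl1 and Ccl11 (left) and for the heat-shock and immediate-early genes Hspa1a, Dnajb1, Fos and Egr1 (right). At 12 weeks both sets are above 1 in replicates 1 and 3 and below -0.5 in replicate 2.

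Ccl5, Xcl1 and Ccl24 were the inflammatory ligands that fell, all at 4 weeks. Ccl5, made by T cells and natural killer cells, had log2 ratios of -0.48 and -0.96 at 4 weeks, -0.67, -0.90 and -0.10 at 12 weeks and 0.27, 0.36 and -0.13 at 30 weeks. It fell at 4 weeks, with -0.72 (SE 0.20, adjusted p = 0.033); at 12 weeks all 3 arrays were below 0, at -0.56 (SE 0.16, adjusted p = 0.0901), and at 30 weeks 2 of 3 were above. A second Ccl5 probe was below 0 on all 8 arrays, with -0.35, -0.079 and -0.67 at 30 weeks. Xcl1, another product of natural killer cells and cytotoxic T cells, had -0.60 and -0.53 at 4 weeks and fell, with -0.56 (SE 0.10, adjusted p = 0.0071). Of 10 markers of cytotoxic and natural killer cells 5 were lower at 4 weeks and none higher, against 7.38% and 15.3% of all genes. Summed levels were 12.84 to 13.20 in knockout nodes and 13.47 to 13.51 in pools, with 8 or more of 10 well above background. The part of these cells in the Ccl5 and Xcl1 ratios was not tested.

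Ccl24, an eotaxin made by macrophages, had -1.44 and -0.84 at 4 weeks, 0.28, -0.23 and 0.068 at 12 weeks and -0.053, -0.80 and -0.31 at 30 weeks, and fell at 4 weeks, with -1.14 (SE 0.20, adjusted p = 0.00582). Its levels were 8.38 and 8.55 in 4-week knockout nodes, against 9.82 and 9.39 in the pools, with no overlap. The sister eotaxin Ccl11 was above 0 on both 4-week arrays, at 1.10 and 0.45, and did not pass. Ccl8 had 1.18 and 0.52 at 4 weeks with an adjusted p of 0.0533, and passed over the mean of the ages at 0.40 (SE 0.14, adjusted p = 0.0449). The remaining inflammatory ligands, Ccl3, Ccl4, Ccl6, Ccl9, Ccl12 and Cxcl5, passed at no single age, and Cxcl5 was at 0.42 (SE 0.12, adjusted p = 0.0181) over the mean of the ages. At 4 weeks Cxcl5 was not well above background in either wild-type pool and was so in 1 of 2 knockout samples, where it was at least 1.01-fold higher, so its mean and its sign on those arrays rest on dim signals.

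In all, 1 of 17 measured inflammatory chemokines was higher and 3 were lower at 4 weeks, and 1 was higher and none lower at each of 12 and 30 weeks. These were 23.5%, 5.88% and 5.88% of the class at 4, 12 and 30 weeks, against 22.7%, 2.61% and 39.1% of all genes. Of the 4 homeostatic ones, 2 were higher at 4 weeks, none passed at 12 weeks, and 1 was higher and 1 lower at 30 weeks. With 4 genes, such counts say little beside the same shares of all genes. The homeostatic median minus the inflammatory median was 0.20 ± 0.34 at 4 weeks (SD, n = 2 arrays), -0.34 ± 0.52 at 12 weeks (SD, n = 3) and 0.026 ± 0.14 at 30 weeks (SD, n = 3). Each mean difference was smaller than its SD over arrays. At 12 weeks the inflammatory medians were 0.73, -0.28 and 0.15 in replicates 1, 2 and 3, while the homeostatic medians were -0.19, -0.21 and -0.0044.

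**Figure D4:**
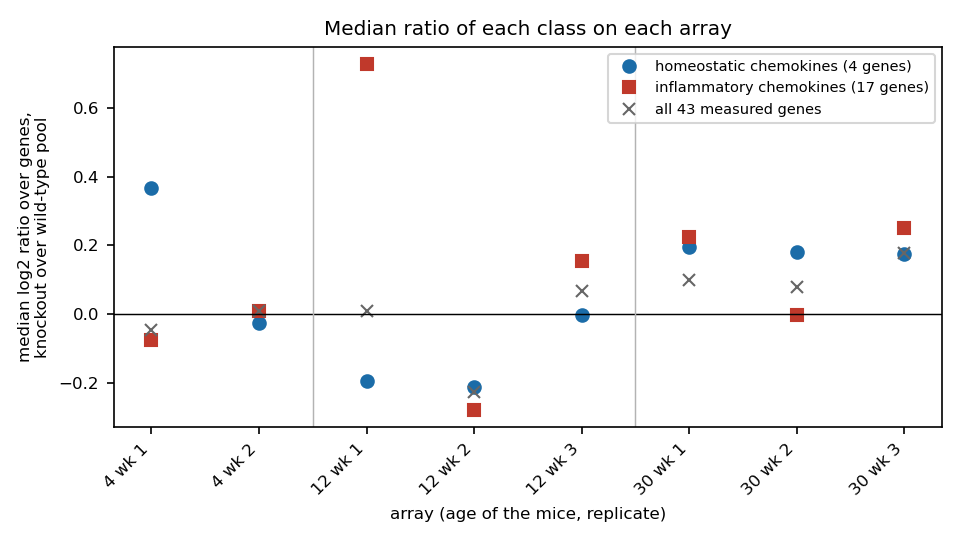
Median log2 ratio, knockout over wild-type pool, of the homeostatic (circles, 4 genes) and inflammatory (squares, 17 genes) chemokines and of all 43 measured genes (crosses) on each array. The squares range from -0.28 to 0.73 over the 12-week arrays; the circles lie highest, at 0.37, on the first 4-week array.

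Of the 8 measured ligands of dual or tissue function, 2 fell at 4 weeks, 1 fell at 12 weeks and 3 rose at 30 weeks. These were 25%, 12.5% and 37.5% of the class, against 22.7%, 2.61% and 39.1% of all genes. Cx3cl1, the membrane-bound fractalkine of endothelium and epithelium, had log2 ratios of -0.70 and -0.55 at 4 weeks, -0.37, -0.36 and -0.30 at 12 weeks and 0.086, 0.17 and 0.36 at 30 weeks. It was called at all 3 ages, lower at 4 weeks (-0.62, SE 0.085, adjusted p = 0.00225) and at 12 weeks (-0.34, SE 0.070, adjusted p = 0.0471), and higher at 30 weeks (0.20, SE 0.070, adjusted p = 0.0476). The difference between 30 and 12 weeks was 0.54 (SE 0.10, adjusted p = 0.0532), which did not pass. The 12-week call was lost in every fit that left out 1 array, with adjusted p of 0.0528 or more, and the 30-week call in 7 of 8.

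Cxcl14, a chemokine of skin and mucosa, had -0.41 and -0.30 at 4 weeks, 0.19, 0.47 and 0.71 at 12 weeks and 0.20, 0.46 and 0.55 at 30 weeks, and rose at 30 weeks, with 0.40 (SE 0.10, adjusted p = 0.0164); at 4 weeks only 1 of 2 arrays measured it above background in either channel. Ccl17, a ligand of Ccr4 made by dendritic cells, had 0.37, 0.18 and 0.47 at 30 weeks and rose, with 0.34 (SE 0.086, adjusted p = 0.0148), after -0.25 and -0.43 at 4 weeks. Ccl20, the ligand of Ccr6, was not well above background in either 4-week knockout sample and was at least 1.23-fold lower there (adjusted p = 0.0442). It passed the filter on dim probes only through the 4-week wild-type pools, where it was higher, so this call is not independent of the filter. Ccl20 remains in the counts at 4 weeks and over the mean of the ages. Ccl25, which draws Ccr9-bearing cells to gut and thymus, passed nowhere and spread most at 30 weeks, at -2.37, 0.072 and 1.27. Ccl22, Ccl27 and Cxcl16 passed at no single age. For Cxcl16 the brighter probe had 0.13 and 0.11 at 4 weeks and -0.16, -0.16 and -0.40 at 30 weeks. A second Cxcl16 probe had -0.47 and -0.42 at 4 weeks, -0.82, -0.29 and 0.053 at 12 weeks and -0.56, -0.57 and -0.89 at 30 weeks. The platelet chemokine Cxcl4 had 0.81, 0.14 and 0.69 at 30 weeks and rose, with 0.55 (SE 0.17, adjusted p = 0.0363).

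Of the 11 other receptors measured, 3 were higher and 1 lower at 4 weeks, none passed at 12 weeks, and 2 were higher and 1 lower at 30 weeks. These were 36.4%, 0% and 27.3% of the class, against 22.7%, 2.61% and 39.1% of all genes. Ccr2, by which monocytes leave the blood, had log2 ratios of 1.00 and 0.41 at 4 weeks, -0.18, -0.054 and -0.063 at 12 weeks and 0.55, 0.36 and 0.56 at 30 weeks. It rose at 4 weeks, with 0.71 (SE 0.13, adjusted p = 0.00666), and at 30 weeks, with 0.49 (SE 0.10, adjusted p = 0.00746), and all 5 arrays of these ages were above 0 while all 3 of 12 weeks were below.

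Ccr6, found on B cells and some T cells, was higher at 4 weeks and lower at 30 weeks. Its ratios were 0.67 and 0.56 at 4 weeks, -0.68, 0.24 and -0.20 at 12 weeks and -0.41, -0.59 and -0.51 at 30 weeks, with a rise at 4 weeks (0.62, SE 0.17, adjusted p = 0.0359) and a fall at 30 weeks (-0.50, SE 0.14, adjusted p = 0.0232). The 4-week and 30-week arrays did not overlap, but 30 minus 4 weeks was not tested and the 4-week arrays had their own slide. Neither 12 minus 4 weeks (-0.83, adjusted p = 0.0653) nor 30 minus 12 weeks (-0.29, adjusted p = 0.438) passed by limma. The B-cell list medians were 0.24 at 4 weeks and -0.40 at 30 weeks. The part of B cells in the Ccr6 ratios was not tested. Cxcr7, a scavenging receptor of Cxcl12 now named Ackr3, had -0.77 and -0.34 at 4 weeks and fell, with -0.55 (SE 0.14, adjusted p = 0.0254). Cx3cr1, the receptor of Cx3cl1 on monocytes and macrophages, had 0.60, 0.44 and 0.49 at 30 weeks and rose, with 0.51 (SE 0.11, adjusted p = 0.00659); a second, dimmer probe of it, well above background in 5 of 8 knockout samples, had -0.10, -0.0038 and -0.18. Of 10 macrophage markers 3 were higher (Adgre1, Mrc1 and Marco) and 2 lower (Cd68 and Siglec1) at 4 weeks, against 15.3% and 7.38% of all genes. Summed levels were 15.89 to 15.96 in knockout nodes and 15.36 to 15.65 in pools. At 30 weeks 5 markers were lower and 1 higher, against 18.4% and 20.7% of all genes. Summed levels were then 15.81 to 16.07 in knockout nodes and 16.11 to 16.31 in pools. All 10 markers were above background at both ages. The part of macrophages in the Ccr2, Ccl24 and Cx3cr1 ratios was not tested.

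**Figure D5:**
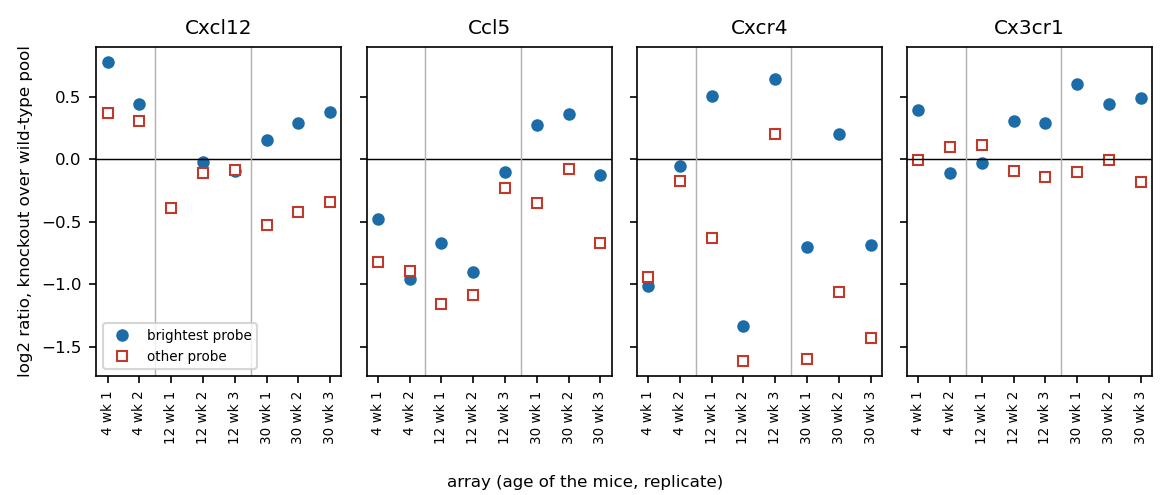
Log2 ratio, knockout over wild-type pool, on each array for 4 genes read by a pair of passing probes; filled circles are the brightest probe, which gives the values in the text, and open squares the other. For Cxcl12 and Cx3cr1 the squares lie below the circles on all 3 arrays at 30 weeks and on the other side of 0.

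9 of the 43 genes had a pair of passing probes. In 6 of 27 gene and age values the probes' means differed by more than 0.5 on the log2 scale, in Cxcl16 at 4 weeks, in Cxcr4 at 12 and 30 weeks, and in Cxcl12, Ccl5 and Cx3cr1 at 30 weeks. The probes of Ccl7 gave 1.26 and 1.19 at 12 weeks, so its wide 12-week spread was read by both.

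Over the mean of the 3 ages 16 of 43 genes passed, 8 higher and 8 lower, or 37.2% against 44.1% of all genes (25.4% higher and 18.7% lower). Under median centring 30 passed, 28 higher and 2 lower, against 66.1% of all genes, and 13 of them were also among the 16. Of the 16, higher were Cxcl10, Ccr2, Cxcl12, Cx3cr1, Cxcl5, Ccl8, Ccr3 and Ccl27, with ratios from 0.14 to 0.92. For Cxcl12 and Cx3cr1 this was read by the brighter probe. The other Cxcl12 probe had means of 0.34, -0.19 and -0.43 at 4, 12 and 30 weeks. The other Cx3cr1 probe had 0.045, -0.039 and -0.097. Of the 16, lower were Ccl24, Ccr7, Ccl5, Ccl21c, Cx3cl1, Xcl1, Cxcr3 and Ccl20, with ratios from -0.53 to -0.14. Of these, Ccl20 passed the filter on dim probes only through its 4-week wild-type pools. Ccl24 was at -0.50 (SE 0.10, adjusted p = 0.0052) and Ccr7 at -0.53 (SE 0.090, adjusted p = 0.00219). Relative to all genes, the direction of Ccl21c, Cxcr3 and Ccl5 turned under median centring.

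The ratios of 5 genes differed between 12 and 4 weeks, or 11.6% of the 43 against 6.98% of all genes (1.37% higher and 5.61% lower). The log2 ratio at 12 weeks minus that at 4 weeks was -1.41 (SE 0.30, adjusted p = 0.0326) for Cxcl13, -0.81 (SE 0.17, adjusted p = 0.0287) for Ccr2 and -0.67 (SE 0.14, adjusted p = 0.0372) for Cxcl12. It was 1.18 (SE 0.26, adjusted p = 0.0341) for Ccl24 and 0.81 (SE 0.17, adjusted p = 0.0282) for Cxcl14. The number was 0 without replicate 1 of 4 weeks (0.00543% of all genes) or replicate 3 of 30 weeks (2.97%), and 9 without replicate 2 of 12 weeks (9.61%). In the same comparison 4 of 10 reticular cell markers and 2 of 4 lymphatic markers were lower, and their part in it was not tested. Between 30 and 12 weeks none of the 43 passed by limma, against 0.777% of all genes. At an unadjusted limma p under 0.05 there were 9 of the 43, against 21.2% of all genes, so the 9 do not stand out. Without replicate 2 of 12 weeks 4 passed and were lower, Ccl2, Ccl7, Ccl11 and Cxcl1, where 1.14% of all genes passed. Without replicate 1 of 12 weeks 4 passed, Ccr6 and Ccr7 lower and Cx3cl1 and Ccl20 higher, where 15% of all genes passed.

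Genes around the family are counted beside the shares of all genes. Those were 22.7% at 4 weeks, 2.61% at 12 weeks and 39.1% at 30 weeks (20.7% higher and 18.4% lower). Of 26 genes that signal downstream of chemokine receptors 2 were higher and 2 lower at 4 weeks, none passed at 12 weeks, and 2 were higher and 11 lower at 30 weeks, with medians of -0.069, -0.085 and -0.094. Lower at 30 weeks were Vav1, a guanine exchange factor for Rac (-0.69, SE 0.10, adjusted p = 0.00152), Gnb1, a G-protein beta subunit (-0.40, SE 0.075, adjusted p = 0.00453), and Arrb1, beta-arrestin (-0.60, SE 0.10, adjusted p = 0.00325). Gnai3, a G-protein alpha subunit, rose at 4 weeks (0.85, SE 0.078, adjusted p = 0.000517), as did Rgs2, which quenches G-protein signals (0.81, SE 0.095, adjusted p = 0.00112). All 26 were measured.

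Of 8 inducers of homeostatic chemokines 1 was higher at 4 weeks, 1 lower at 12 weeks, and 1 higher and 2 lower at 30 weeks. The counts here stand against 22.7%, 2.61% and 39.1% of all genes that passed at 4, 12 and 30 weeks. Nfkb2, the subunit of the alternative NF-kappa-B pathway, was at -0.58 (SE 0.081, adjusted p = 0.00153) at 30 weeks, and Chuk, a kinase of that pathway, was at 0.50 (SE 0.086, adjusted p = 0.00551) at 4 weeks. Of 10 measured inducers of inflammatory chemokines 1 was higher and 1 lower at 4 weeks, none passed at 12 weeks and 1 was higher at 30 weeks. Ifngr1, a chain of the interferon-gamma receptor, was at 0.65 (SE 0.092, adjusted p = 0.00249) at 4 weeks and Nfkb1 at 0.83 (SE 0.13, adjusted p = 0.0024) at 30 weeks, while Ifng and Irf1 passed at no age. Of 6 measured atypical receptors and chemokines of other names 1 was higher and 1 lower at 4 weeks, 1 was higher at 12 weeks and 2 at 30 weeks. Ccrl2, an atypical receptor, was at -0.33 at 4 weeks, 0.31 at 12 weeks and 0.20 at 30 weeks.

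Calls in the remaining cell marker lists were as follows, where 22.7%, 2.61% and 39.1% of all genes passed at 4, 12 and 30 weeks. Of 7 genes of blood endothelium and high endothelial venules none passed at 4 weeks, 1 was lower at 12 weeks, and 1 was higher and 4 lower at 30 weeks, with list medians of -0.49 to -0.38 on the 3 arrays. Of 9 dendritic cell genes 1 was lower at 4 weeks, none passed at 12 weeks, and 1 was higher and 1 lower at 30 weeks. Of 10 acinar genes none passed at any age, and of 8 fat cell genes 1 was higher and 2 lower at 4 weeks, none passed at 12 weeks and 1 was higher at 30 weeks.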

How the data were processed

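Agilent 2-colour arrays of pancreatic lymph nodes were analysed, 2 of 4-week, 3 of 12-week and 3 of 30-week knockout mice. The authors deposited scanner output from Agilent Feature Extraction with spot intensity per channel, per the file headers, the scanner's log10 ratio of processed signals, and a table of log2 ratios whose columns had medians of -0.21 to 0.15 and matched log2 of red over green processed signal. Knockout RNA was in red, per the labels. Here mean intensities were background-corrected (normexp, offset 50) and loess-normalised within arrays in limma 3.58.1 (R 4.3.3). Spots of a probe were averaged, and probes dim on some array of every age, in both channels, were left out. The brightest kept probe stood for each gene. One mean per age was fitted over 8 arrays, with Benjamini-Hochberg adjustment over 18410 genes at 0.05. The procedure was tested on simulated data. Genes named were the family members by name, and pathway and cell marker lists were set beside them; members and lists were chosen with earlier results of these data known. Replicates are separate knockout samples per the labels, and p-values measure the spread between them. The number of arrays limits precision. Values of 1 receptor and 1 pathway gene, which enter the counts and medians, are not reported here. Alternatives tried were other normalisations, filters, probe choices, blocks for slide and replicate number, and leaving out each array.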

Additional observations from a re-analysis of the deposited data

Results flagged for a closer look

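The knockout over wild-type ratio of 5 genes differed between ages by the test of the difference itself, 12 minus 4 weeks. It was -0.81 (SE 0.17, adjusted p = 0.0287) for Ccr2, -0.67 (SE 0.14, adjusted p = 0.0372) for Cxcl12 and -1.41 (SE 0.30, adjusted p = 0.0326) for Cxcl13. It was 0.81 (SE 0.17, adjusted p = 0.0282) for Cxcl14 and 1.18 (SE 0.26, adjusted p = 0.0341) for Ccl24. Both 4-week arrays were on a slide and scanner of their own, so age and slide cannot be told apart. Each of the 5 calls was lost in 4 to 6 of the 8 fits that left out 1 array.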

How the results depend on the processing

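Shares in parentheses are of all genes. The number of the 43 genes called at 4 weeks was 13 (22.7%). Over the alternatives that kept all arrays it ranged from 9 with the replicate block (14.9%) to 19 with slide as a random block (35.9%). At 12 weeks it was 2 (2.61%), and became 21 under median centring (56%), 20 with slide as a random block (48.8%), and 0 with the scanner's log ratio (0.945%), with the deposited table (0.978%) and within slide 2 (0.0326%); the replicate block gave 2 (1.71%), of which 0 were shared. At 30 weeks it was 11 (39.1%), and became 0 within slide 2 (0.217%) and 7 with the replicate block (35.8%). Over the mean of the ages it was 16 (44.1%), and 30 under median centring (66.1%). Between 12 and 4 weeks it was 5 (6.98%), and became 0 under median centring (0.277%), 8 with the scanner's log ratio (11.7%) and with the deposited table (11.9%), 14 with the slide block (24.3%) and 2 with the replicate block (1.95%). Between 30 and 12 weeks it was 0 (0.777%), and became 1 with no filter (0.598%), 1 with a filter on both channels of all arrays (1.4%), and 6 with the slide block (12.7%). The slide block fit used an estimated correlation of -0.26 between arrays of a slide. A negative value narrows the error of a mean within a slide, so its larger counts are not added support. The labels do not say whether same-numbered arrays of different ages were paired. Correlations of their deviations from the age means ran from -0.08 to 0.24. The 2 arrays of 4 weeks have mirrored deviations, so these values cannot settle it. Leaving out 1 array of 12 or 30 weeks moved both the calls and the shares of all genes, though not always in step. It gave 10 to 17 calls at 4 weeks (17.6% to 28.1%), 0 to 7 at 12 (0.0978% to 10.1%) and 1 to 13 at 30 (21.4% to 43.2%). Over the mean it gave 11 to 22 (35.4% to 47.4%). Between 12 and 4 weeks it gave 0 to 9 (2.67% to 9.61%), and between 30 and 12 weeks 0 to 4 (0% to 15%). With 1 array of the age left out, the homeostatic minus inflammatory median was -0.04 to 0.44, -0.54 to -0.05 and -0.05 to 0.08 at the 3 ages. It was 0.78 at 4 weeks and 0.29 at 30 weeks under median centring, and -0.18 at 30 weeks with the mean of passing probes.

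Under median centring 22, 23, 6 and 20 of all 43 genes changed sign at 4, 12 and 30 weeks and over the mean. Among the 75 values followed singly through the settings, 22 did. At 4 weeks these were Ccr7 0.14, Cx3cl1 0.082, Ccl5 0.21, Xcl1 0.050, Cxcr7 0.22, Ccl19 0.54, Ccl21c 0.66 and Cxcl9 0.77. At 12 weeks they were Cx3cl1 0.16, Ccl19 0.93, Ccl21c 0.79, Cxcl12 0.64, Ccr7 0.53, Cxcl9 0.55 and Ccl5 0.43. At 30 weeks Ccl21c was 0.24. Over the mean of the ages they were Ccl21c 0.56, Cxcr3 0.41, Ccr7 0.16, Cx3cl1 0.23, Ccl5 0.49 and Xcl1 0.089. Relative to the shift of all genes, 9 of the 22 kept their sign. Cxcl12 at 30 weeks was -0.078 with the mean of passing probes. Of 48 calls followed, 1 of them Cxcr5 at 30 weeks, 2 were kept in all of the settings run for them. These were Cxcl10 and Ccr2 over the mean of the ages, which was not fitted within slide 2.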
